A study of Rattus norvegicus with 20 samples.

Results

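The subunits of the mitochondrial respiratory chain and ATP synthase that are encoded in the nucleus were followed in rat kidneys exposed to a calcineurin inhibitor. Members were the protein-coding genes outside the mitochondrial genome in the tacrolimus table whose symbol is that of a subunit of complex I to V (Nduf, Sdh, Uqcr, Cox4 to Cox8 or Atp5 symbols). The rule found 88 of the 32883 genes listed, and 87 of them were found by gene identifier among the 32545 genes listed for cyclosporine A. Complex I had 36 members, complex II 4, complex III 9, complex IV 22 and complex V 17. These counts include 7 members whose genomic span equals the gene length, as in an entry without introns. Ndufa4 and Ndufa4l2 were placed in complex IV, where the Ndufa4 protein is now assigned. After a filter on low values 82 members were tested with tacrolimus and 80 with cyclosporine A. The remaining members (Cox6a2, Cox7a1, Cox7b2, Cox8c and Cox6c-ps1 in both tables, with the chromosome 6 entry of Ndufa10l1, Cox6b2 or Ndufa4l2 in one of them) were too low to test or not listed.

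RNA was sequenced from entire kidneys of wild-type male Wistar rats aged 10 to 12 weeks, after 28 days of drug or vehicle from osmotic minipumps placed under the skin. Cyclosporine A (n = 4, target trough given in the labels as 3 mg/ml) was compared with saline (n = 4). Tacrolimus (n = 6, target trough 3.5 ng/ml) was compared with its solvent of 25% DMSO and 75% polyethylene glycol, called DMSO/PEG here (n = 6). Both drugs inhibit the phosphatase calcineurin and are used as immunosuppressants. Because the drugs were given with different vehicles and deposited in separate tables, effects of drug, vehicle and table cannot be told apart in any comparison of the drugs. The labels number the samples within a group and do not say that each came from another animal, so p-values measure the spread between these samples. In whole-kidney RNA, fewer cells of a type and less RNA per cell cannot be told apart. Markers of the proximal tubule, the most abundant nephron segment, summed to 13519 to 15352 FPKM in DMSO/PEG kidneys and to 6569.6 to 11011 FPKM in saline kidneys, each on the scale of its own deposited table, so these ranges are not comparable.

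The respiratory chain passes electrons from NADH (complex I) and succinate (complex II) through complex III to oxygen at complex IV, and complex V (ATP synthase) uses the resulting proton gradient to make ATP. Complexes I, III, IV and V are assembled from subunits of nuclear and of mitochondrial origin, whereas complex II is wholly nuclear. Proximal tubules and thick ascending limbs are packed with mitochondria because salt and solute transport consumes much ATP.

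The regulators NRF-1 and the ETS factor NRF-2 (GABP) are textbook activators of these genes, so promoters were searched for their motifs. In RefSeq promoters of the GRCr8 assembly (250 bases before to 50 after the start, 300 bases each), 72 members were matched by symbol. Letters were searched on both strands. The relaxed NRF-1 motif (GCGC, any base, then TGCGC) was present in 13 of 72 members (18.1%) and in 1424 of all 33469 promoters (4.25%). Its strict form with A at the free base, which the relaxed form includes, was in 4 members (5.56%) and in 0.852% of all promoters. The ETS motif CCGGAAGT was in 8 members (11.1%) against 3.81%, and TATAAA in 6 (8.33%) against 14.2%. The median GC content was 56.0% in the members' promoters and 51.7% in all. The relaxed NRF-1 motif was found in 6 of 31 complex I members, 5 of 15 complex V members and 0 of 16 complex IV members. A match describes letters and not a bound site. The 250 bases before the start are shown for the Cox8a and Cox8b isoform pair, of which Cox8b had the lowest change of all members with tacrolimus, for Atp5me, the member with the smallest p with cyclosporine A after rescaling, and for Sdha, the member with the most matches to the relaxed NRF-1 letters. Sdha had 3 such matches in its 300 bases, not all of them within the 250 bases shown. Capitals mark matches to the relaxed NRF-1, ETS or TATAAA letters on either strand.
Cox8a: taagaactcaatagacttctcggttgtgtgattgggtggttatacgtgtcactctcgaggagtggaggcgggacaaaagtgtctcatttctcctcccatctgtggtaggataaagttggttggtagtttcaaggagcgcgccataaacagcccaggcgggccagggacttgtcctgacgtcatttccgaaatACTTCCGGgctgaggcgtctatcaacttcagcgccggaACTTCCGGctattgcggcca
Cox8b: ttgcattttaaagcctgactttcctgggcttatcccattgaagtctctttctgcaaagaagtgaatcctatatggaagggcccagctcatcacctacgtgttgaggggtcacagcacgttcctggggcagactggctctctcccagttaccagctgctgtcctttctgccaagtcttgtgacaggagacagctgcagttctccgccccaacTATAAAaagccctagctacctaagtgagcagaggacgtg
Atp5me: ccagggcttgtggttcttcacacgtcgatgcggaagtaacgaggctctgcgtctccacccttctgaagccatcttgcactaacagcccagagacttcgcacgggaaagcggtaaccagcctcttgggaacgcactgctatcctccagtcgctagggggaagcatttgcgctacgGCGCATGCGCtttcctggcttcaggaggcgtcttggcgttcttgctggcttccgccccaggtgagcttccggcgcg
Sdha: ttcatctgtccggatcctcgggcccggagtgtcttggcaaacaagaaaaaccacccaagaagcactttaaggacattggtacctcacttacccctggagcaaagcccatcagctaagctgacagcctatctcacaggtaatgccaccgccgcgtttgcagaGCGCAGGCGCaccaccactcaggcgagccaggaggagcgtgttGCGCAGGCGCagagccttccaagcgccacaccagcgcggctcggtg
In GRCr8 these windows lie at chr1:213833624-213833873 (minus strand), chr1:205408274-205408523 (minus strand), chr14:1464610-1464859 (plus strand) and chr1:30764303-30764552 (plus strand). The housekeeping isoform Cox8a had 2 ETS matches and no TATAAA, and Cox8b had TATAAA and neither of the other motifs.

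The members are among the abundant messages of the kidney. In DMSO/PEG kidneys their median level was 241 FPKM, against 7.17 FPKM for all tested genes, and in saline kidneys 153 FPKM against 4.07 FPKM, where FPKM are fragments per kilobase of gene length, scaled to sequencing depth. With DMSO/PEG 68 of 88 members reached 100 FPKM, 10 lay under 5 FPKM and 4 were listed at 0 in every library. The level order was shared by both tables: across 87 members, saline levels (rescaled as described below) and DMSO/PEG levels gave Spearman's rho 0.96, as a description.

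The highest member of each complex was the same in both tables. In DMSO/PEG kidneys (n = 6) Atp5f1b, the catalytic beta subunit of ATP synthase, stood at 2069 ± 179 FPKM (SD), above the 1346 ± 114 FPKM of the alpha subunit Atp5f1a, with no overlap of their ranges. Cox8a, a small structural subunit of cytochrome c oxidase, was at 1596 ± 274 FPKM, also without overlap with the next complex IV member, Cox6a1 (981 ± 181 FPKM). Uqcr11 led complex III at 479 ± 106 FPKM, within the spread of the Rieske iron-sulfur protein Uqcrfs1 (467 ± 53.1 FPKM). Sdhc, a membrane anchor of succinate dehydrogenase, was at 502 ± 51.6 FPKM, and the catalytic Sdha (347 ± 26.2 FPKM) and iron-sulfur Sdhb (343 ± 35.4 FPKM) did not differ beyond their spread. Ndufb9, an accessory subunit of the membrane arm, led complex I at 371 ± 41.0 FPKM and overlapped with the next member, Ndufb8.

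Most isoform families were carried by a single kidney form. Cox4i1, the ubiquitous regulatory subunit, was at 881 ± 145 FPKM in DMSO/PEG kidneys, and its hypoxia-linked counterpart Cox4i2 at 1.60 ± 0.472 FPKM (SD, n = 6). Cox6a1 (981 FPKM) and Cox6a2, the heart and muscle form (0.255 ± 0.245 FPKM), formed another such pair. Cox6b1 on chromosome 1 was at 386 ± 56.1 FPKM and the testis form Cox6b2 at 1.48 ± 0.496 FPKM. The muscle form Cox7a1 was at 0.133 ± 0.0643 FPKM, against 438 ± 45.1 FPKM for the gene called Cox7a2l2 in this table and Cox7a2 in the other, and 90.1 ± 10.4 FPKM for the supercomplex factor Cox7a2l. Ndufa4 was at 839 ± 119 FPKM and Ndufa4l2, its hypoxia-induced paralog, at 1.47 ± 0.384 FPKM. The testis forms Cox7b2 and Cox8c were listed at 0 in every library, while Cox7b was at 729 ± 115 FPKM.

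The libraries held 30468745 to 39358485 fragments. Mitochondrial genes supplied 49.7% to 68.6% of fragments with saline and 80.2% to 90.8% with cyclosporine A, and 10.5% to 15.9% in the libraries of the tacrolimus experiment. The deposited cyclosporine A values are relative to all fragments, mitochondrial ones included. The deposited tacrolimus values follow median-of-ratios size factors, which equalize the median gene between libraries. Members took 1.09% to 1.80% of all fragments in saline libraries and 0.325% to 0.760% in cyclosporine A libraries, but 3.46% to 3.96% and 3.55% to 4.18% of the nuclear fragments. Mitochondrial fragments per member fragment ran from 27.7 to 63.2 with saline and from 106 to 279 with cyclosporine A, without overlap. With DMSO/PEG this ratio was 3.81 to 5.40 and with tacrolimus 4.30 to 6.64.

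**Figure D1:**
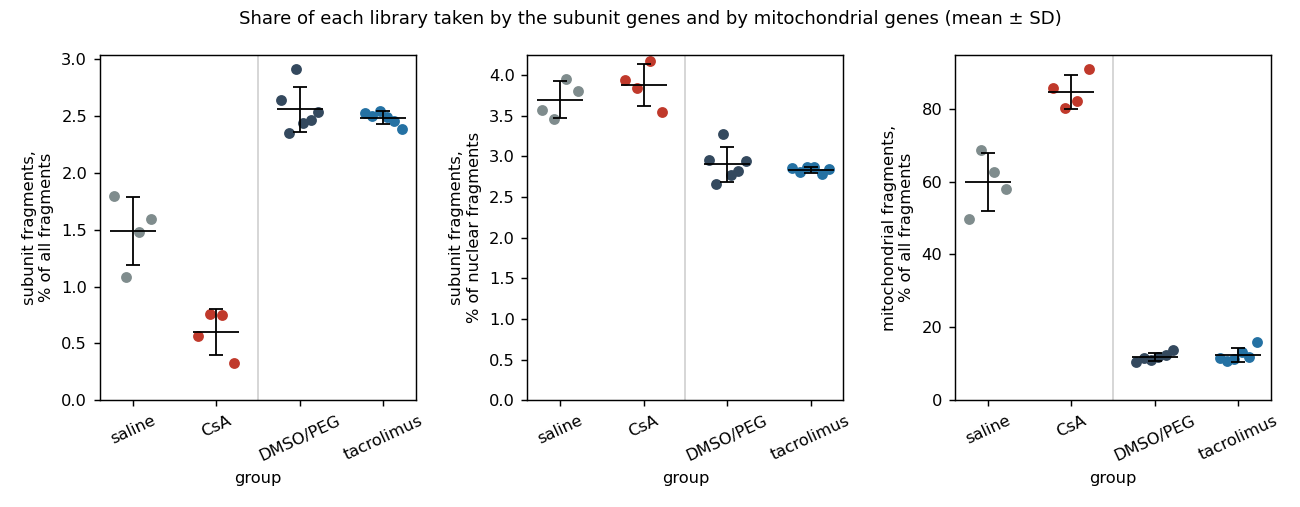
Each point is a library, with member fragments as a percentage of all fragments (left), member fragments as a percentage of nuclear fragments (middle) and mitochondrial fragments as a percentage of all fragments (right) on linear axes, and bars give the group mean ± SD. The cyclosporine A libraries lie below saline in the left panel (0.325% to 0.760% against 1.09% to 1.80%) and overlap with saline in the middle panel.

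On deposited FPKM nearly every member was lower with cyclosporine A, as were most genes. Cox8a was at 1379, 857, 1119 and 1141 FPKM in the saline libraries and at 376, 577, 532 and 234 FPKM with cyclosporine A. Atp5f1a was at 668, 411, 481 and 544 FPKM with saline and at 154, 231, 207 and 89.2 FPKM with the drug. All 4 drug libraries lay below all 4 saline libraries for both genes, with replicate 4 lowest. The changes were −1.45 ± 0.33 (SE) and −1.69 ± 0.33 on the log2(FPKM + 1) scale (limma, adjusted p = 0.00111 and 6.84e-04).

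Of 80 tested members 75 fell and 0 rose at an adjusted p under 0.05 (limma, Benjamini-Hochberg over all 13454 genes tested), where 80.9% of all genes fell and 0.193% rose (81.1% called in all). In 71 members, all lower with the drug, the groups did not overlap, against 67.9% of all genes. The members' median change was −1.31, against −0.89 over all genes. The median by complex was −1.34 in I, −1.40 in II, −1.27 in III, −1.27 in IV and −1.27 in V. Members that did not pass the test were Ndufa1, Atp5pb, Cox8b, Cox4i2 and the chromosome 13 entry of Ndufv3, which the cyclosporine A table calls Ndufv3-ps1. Ndufa1 was called higher without saline replicate 1 (3.61, adjusted p = 0.00732) or cyclosporine A replicate 4 (3.52, 0.00789), and Atp5pb lower without cyclosporine A replicate 2 (−1.34, 0.00742). For Ndufa1 the groups overlapped in both settings. Without saline replicate 1, cyclosporine A replicate 4 (0.593 FPKM) lay below every saline library. Without cyclosporine A replicate 4, saline replicate 1 (229 FPKM) lay above every drug library. The spliced Uqcrb entry lost its call (−0.81, adjusted p = 0.0274) without saline replicate 1, 3 or 4 or cyclosporine A replicate 1 (0.0590 to 0.0941) and with no filter on low values (0.0540). The gap to the median gene went with expression level: among genes of at least 100 FPKM in saline kidneys, the 59 members had a median of −1.33 and 431 other nuclear genes one of −1.44, and 11 of the 59 lay below that. With a pseudocount of 0.1 in place of 1, the medians of members and all genes were −1.32 and −1.26.

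The fragments recovered from the deposited FPKM were therefore also scaled by median-of-ratios size factors (rescaled FPKM), as the tacrolimus values already were. On this scale members neither rose nor fell with cyclosporine A beyond the test: 0 of 80 were called by limma (0 also by voom), where 0.609% of all genes were called by limma, and the smallest adjusted p was 0.124. At an unadjusted p under 0.05 there were 7 members (4 higher, 3 lower; 8.75%), against 16.2% of all genes. Groups did not overlap in 7 members (3 higher, 4 lower), or 8.75%, against 10.9% of all genes (4.81% higher, 6.11% lower). The median change was 0.014, against −0.00026 over all genes, with 42 members above 0 and 38 below. Relative to nuclear fragments it was 0.11, against 0.068 over all genes, with 59 above 0 and 21 below, 14 members at an unadjusted p under 0.05 and 0 called by limma. Among genes of at least 100 rescaled FPKM in saline kidneys, the 41 members had a median of 0.020 and 247 other nuclear genes one of −0.12, with 4 of the 41 below that. For 69 of 80 members the 95% interval of the change lay within 1.5-fold either way (log2 ± 0.58), so larger changes lay outside the interval for those. The median turned negative without saline replicate 1 (−0.0056) or 2 (−0.028) or cyclosporine A replicate 2 (−0.014) or 3 (−0.049). It was 0.078 without cyclosporine A replicate 4, the library with the highest mitochondrial share, and then 15 members reached an unadjusted p under 0.05. For this fit and the one relative to nuclear fragments, the share of all genes at that p is not given here. Neither the 15 nor the 14 members are therefore read as a response of the members.

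Summed over the members of a complex, rescaled FPKM in saline and cyclosporine A kidneys (n = 4 each, mean ± SD) was 2843 ± 177 and 2919.9 ± 423 for complex I. Complex II summed to 487 ± 19.7 and 469 ± 53.3, and complex III to 910.5 ± 60.4 and 941 ± 78.9. Complex IV summed to 3520.1 ± 236 and 3579 ± 368, and complex V to 3876 ± 249 and 4057 ± 475. In each complex the means differed by less than the SD of both groups. Ndufa1 alone, with means of 29.4 and 116, moved by more than the complex I sums.

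**Figure D2:**
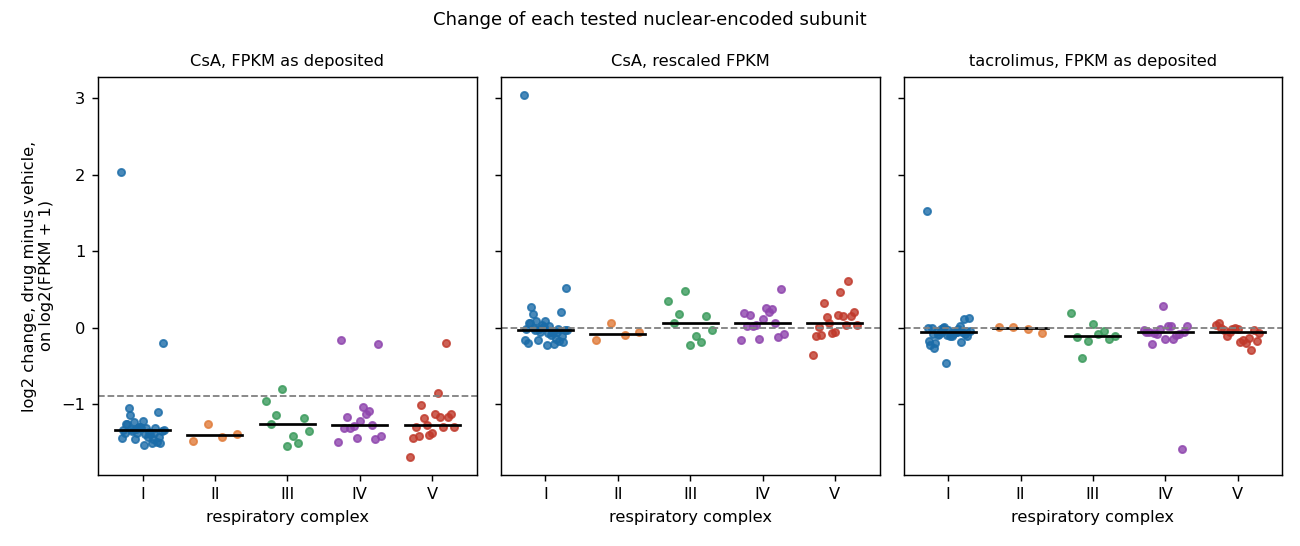
Each point is a tested member, plotted by complex (x axis) against its log2 change, drug minus vehicle, on log2(FPKM + 1) (y axis); black bars are the medians of a complex and the dashed line is the median of all genes tested. Members lie around −1.31 on deposited cyclosporine A values and around 0 after rescaling and with tacrolimus; the point far above 0 in each panel is Ndufa1 and the point at −1.58 with tacrolimus is Cox8b.

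Core and other subunits were mixed around 0 after rescaling, and their difference was not tested. Of 20 core subunits (catalytic and redox subunits, the complex II anchors, large subunits of III and IV, and the ATP synthase head), 15 were below 0 with a median of −0.11. Of the 60 others 37 were above 0 with a median of 0.036. No core subunit was called (limma). ATP synthase alpha, Atp5f1a, was at 331, 325, 314 and 316 rescaled FPKM with saline and at 246, 279, 277 and 208 with cyclosporine A. The groups did not overlap, and the change was −0.36 ± 0.12 (SE, limma, adjusted p = 0.179, unadjusted 0.0127). Its partner Atp5f1b was at 637, 595, 646 and 655 with saline and at 644, 580, 677 and 470 with the drug, so the groups overlapped and only drug replicates 2 and 4 lay below every saline library (−0.11, 95% interval −0.41 to 0.20).

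Core subunits of the other complexes gave smaller values. Uqcrc1, a core protein of complex III, was at 75.1, 74.9, 81.2 and 77.6 rescaled FPKM with saline and at 59.9, 65.4, 72.6 and 65.8 with cyclosporine A. These groups did not overlap either (−0.23 ± 0.093, limma, adjusted p = 0.265). The complex I iron-sulfur subunit Ndufs1 (−0.21) and the flavin subunit Ndufv1 (−0.19) were below 0, while Ndufs7, which holds the last iron-sulfur cluster before ubiquinone, was above it (0.20). In complex II Sdha was at −0.16, Sdhb at 0.067, Sdhc at −0.097 and Sdhd at −0.062. In complex IV Cox4i1 was at −0.17, Cox5a at 0.019 and Cox5b at 0.16. None of these was called by limma, and the smallest adjusted p among them was 0.265 (Uqcrc1).

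Among accessory subunits the smallest p belonged to Atp5me, a small subunit of the ATP synthase membrane part (gene at chromosome 14, 2325308 to 2326436, plus strand). It was at 191, 171, 206 and 227 rescaled FPKM with saline and at 267, 297, 308 and 233 with cyclosporine A. Every drug library was above every saline library, and the change was 0.47 ± 0.13 (SE, limma, adjusted p = 0.124). Cox7a2l was at 34.9, 34.6, 34.4 and 35.2 with saline and at 41.7, 38.4, 41.1 and 46.7 with the drug, without overlap (0.26 ± 0.091, adjusted p = 0.199). Ndufb6, of the complex I membrane arm, was at 67.4, 66.6, 69.8 and 67.6 with saline and at 58.4, 58.2, 61.2 and 53.7 with the drug, lower in 4 of 4 libraries (−0.23 ± 0.085, adjusted p = 0.230). On deposited FPKM Atp5me, Cox7a2l and Ndufb6 were all called lower.

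Gene length moved with the rescaled change. The 23 members with a listed length under 500 bases had a median of 0.16, with 19 above 0. The 32 members of 500 to 1000 bases had a median of 0.0039, and the 25 members from 1000 bases up one of −0.096, with 18 below 0. Other nuclear genes had medians of 0.12, 0.028 and −0.0049 in the same classes. Across the 80 members the change and the log2 length gave Pearson's r −0.38 and Spearman's rho −0.49, as a description, since members share the same 8 libraries. The 20 core subunits had a median length of 1184 bases and the others 557.5 bases, and the part of length in their difference was not tested. With tacrolimus the medians in the 3 classes were −0.10, −0.068 and −0.035 (r = 0.0084, rho = 0.26).

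**Figure D3:**
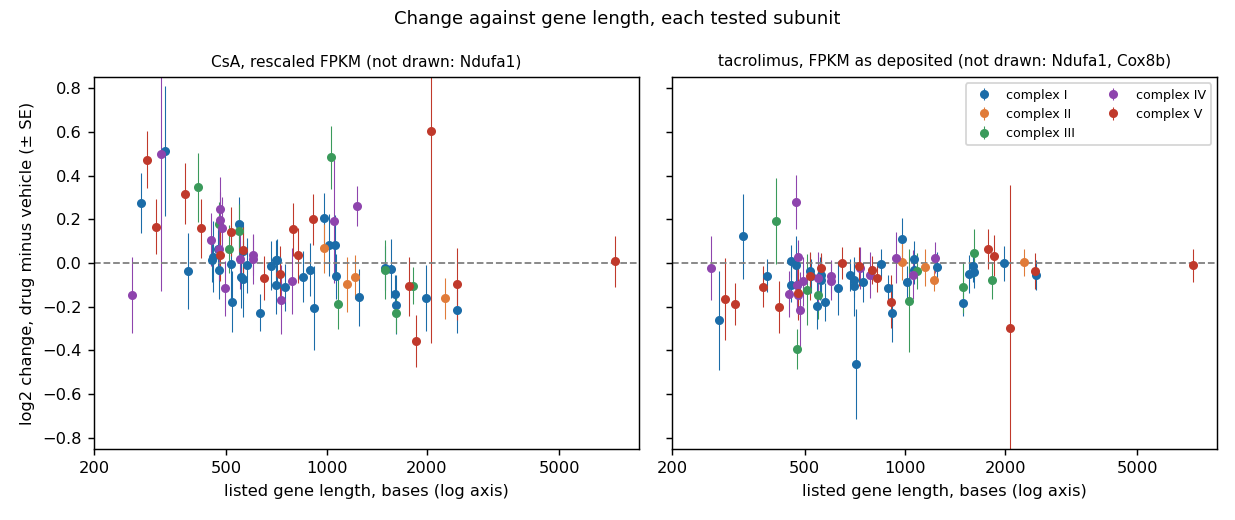
Each point is a tested member, with its listed gene length in bases (log axis) against its log2 change, drug minus vehicle, with the SE of the limma fit as error bars and colours for complexes. After rescaling, 19 of 23 members under 500 bases lie above 0 with cyclosporine A (left), and 6 of 24 do with tacrolimus (right).

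With tacrolimus 0 of 82 members were called by limma (0 also by voom; 0.304% of all 15479 genes were called by limma), with 4 at an unadjusted p under 0.05 (4.88%, against 8.59% of all genes). In 0 of 82 members the groups did not overlap, against 0.976% of all genes. The median change was −0.060 against −0.00033 over all genes, with 66 of 82 below 0, and for 73 of 82 the 95% interval lay within 1.5-fold. This offset rested on 1 library: without DMSO/PEG replicate 3 the median was −0.0076 with 37 above 0 and 45 below. In that library members took 3.27% of the nuclear fragments, against 2.66% to 2.95% in the other DMSO/PEG libraries and 2.78% to 2.87% with tacrolimus. Without it, DMSO/PEG replicate 5 and tacrolimus replicate 6, the libraries with the fewest nuclear genes detected, the median was −0.0013 with 41 members on each side.

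By complex, summed FPKM in DMSO/PEG and tacrolimus kidneys (n = 6 each, mean ± SD) was 6758 ± 672 and 6399 ± 193 for complex I. It was 1510.0 ± 115 and 1488 ± 91.4 for II, 2275 ± 248 and 2139.8 ± 84.4 for III, 8822 ± 1186 and 8275 ± 216 for IV, and 9977 ± 1015 and 9705 ± 332 for V. Each difference was smaller than the SD of the DMSO/PEG group, but in complexes I, III and IV larger than that of the tacrolimus group. Core subunits had a median of −0.022, with 13 of 20 below 0, and the others one of −0.074, with 53 of 62 below 0; their difference was not tested. Atp5f1b ran from 1809 to 2342 FPKM (median 2064) with DMSO/PEG and from 2013 to 2465 (median 2098) with tacrolimus. Ndufs1 ran from 156 to 199 (median 177) and from 152 to 195 (median 167), and Sdha from 297 to 368 (median 356) and from 329 to 378 (median 343). The groups overlapped for all 3 genes, and the intervals of their changes reached no further than −0.20 and 0.265.

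The member with the lowest change with tacrolimus was Cox8b, the isoform of subunit VIII found in heart, skeletal muscle and brown fat (chromosome 1, 213648787 to 213650247, minus strand). It ran from 4.09 to 15.04 FPKM (median 10.2) with DMSO/PEG and from 1.26 to 4.77 FPKM (median 2.23) with tacrolimus. The groups overlapped only through DMSO/PEG replicate 4, which lay below tacrolimus replicate 3. The mean was 9.91 ± 4.74 FPKM with DMSO/PEG and 2.50 ± 1.27 FPKM with tacrolimus (SD, n = 6), from 47 to 173 and from 16 to 59 fragments per library. The change of −1.58 ± 0.31 (SE) missed the threshold (limma, adjusted p = 0.0537) and passed it without DMSO/PEG replicate 4 (0.0157) or tacrolimus replicate 3 (0.0291), with a pseudocount of 0.1 (0.0474) and relative to nuclear fragments (0.0470). Its ubiquitous counterpart Cox8a ran from 1310 to 2028 FPKM (median 1582) with DMSO/PEG and from 1346 to 1609 (median 1485) with tacrolimus (−0.084, 95% interval −0.33 to 0.16).

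Some markers of brown adipocytes were lower in the same libraries. Ucp1, the uncoupling protein that defines brown fat, ran from 6.19 to 25.8 FPKM (median 15.7) with DMSO/PEG and from 0 to 2.45 FPKM (median 0.105) with tacrolimus, without overlap. It fell by 3.33 on the log2(FPKM + 1) scale (limma, adjusted p = 8.42e-04), and the lipid droplet protein Cidea fell by 1.36 (adjusted p = 0.0288). Of 6 tested genes of that list 3 fell (Ucp1, Cidea, Otop1; 0.304% of all genes were called), and the summed level of the list was 21.5 to 47.5 FPKM with DMSO/PEG and 11.3 to 16.6 FPKM with tacrolimus; Elovl3 was under 0.04 FPKM in every library. Of 9 adipocyte markers 0 were called (6 at an unadjusted p under 0.05, 8 below 0), summing to 121 to 367 FPKM and 80.9 to 210 FPKM. Striated muscle markers summed to 1.43 to 6.09 and 0.640 to 1.73 FPKM, with 0 of 2 tested called (0 at an unadjusted p under 0.05). The part of adipose tissue on the kidneys in the Cox8b value was not tested. With cyclosporine A Cox8b was at 0.499, 1.21, 4.14 and 2.81 rescaled FPKM with saline and 4.10, 7.22, 5.18 and 0 with the drug, so the groups overlapped.

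**Figure D4:**
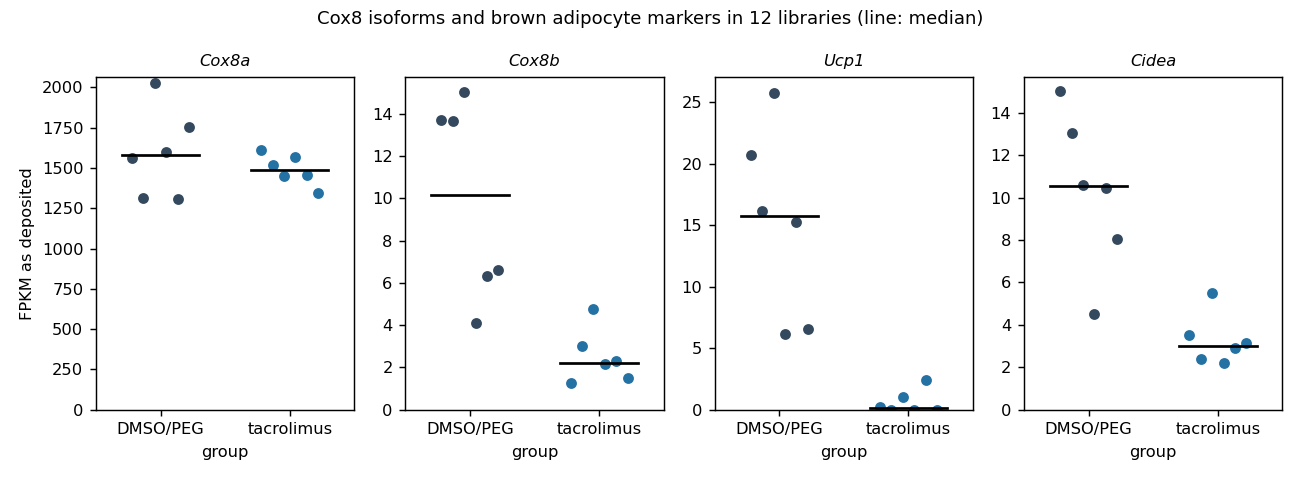
FPKM as deposited (linear y axes from 0) in the 6 DMSO/PEG and 6 tacrolimus libraries for the Cox8 isoforms and the brown adipocyte markers Ucp1 and Cidea, each point a library and each line the group median. Cox8a overlaps between the groups, Cox8b has medians of 10.2 and 2.23 FPKM, and all 6 tacrolimus libraries lie below the lowest DMSO/PEG library for Ucp1.

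Other members named here lay closer to 0 with tacrolimus. Ndufs4, an accessory subunit needed for complex I assembly and named after its values were seen, ran from 65.0 to 79.5 FPKM (median 74.4) with DMSO/PEG and from 56.4 to 69.2 (median 67.2) with tacrolimus (−0.18 ± 0.062, limma, adjusted p = 0.376). Cox6b2 ran from 0.946 to 2.39 FPKM (median 1.40) and from 1.32 to 2.37 (median 2.02), the highest change in complex IV (higher by 0.28 ± 0.12, adjusted p = 0.557). In complex I Ndufb3, a membrane arm subunit, had the lowest change: it ran from 79.9 to 157 FPKM (median 140.4) and from 39.4 to 117 (median 111). DMSO/PEG replicate 5 and tacrolimus replicate 6 were far below their groups (−0.46 ± 0.25, adjusted p = 0.663). Without those libraries and DMSO/PEG replicate 3, Ndufb3 was lower at −0.36 (adjusted p = 0.0411).

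Uqcrb, the ubiquinone-binding protein of complex III, has 2 entries. One entry has a genomic span equal to its length (chromosome 1, 94718402 to 94718876, plus strand, called LOC685596 in the other table), and the other is spliced (chromosome 7, 71264514 to 71269869, minus strand). Reads shared by the 2 entries could have been split between them by the authors' counting, so each value is uncertain. The chromosome 1 entry was at 93.6, 86.9, 91.1 and 94.4 rescaled FPKM with saline and 90.2, 111, 115 and 99.0 with cyclosporine A. It ran from 162 to 207 FPKM (median 183) with DMSO/PEG and from 113 to 171 (median 138) with tacrolimus. Values were thus higher in 3 of 4 cyclosporine A libraries than in any saline library, and lower in 5 of 6 tacrolimus libraries than in any DMSO/PEG library.

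The change of this entry was 0.18 ± 0.10 with cyclosporine A (limma, adjusted p = 0.438) and −0.39 ± 0.092 with tacrolimus (adjusted p = 0.133). It was the only member of 80 called in the difference between the drug changes (0.57 ± 0.14, adjusted p = 0.0405, 1.25% of members against 1.61% of 13390 genes, 0.851% higher). The call was lost without any 1 of 11 of the 20 libraries (every saline library, cyclosporine A replicates 2 and 3, DMSO/PEG replicates 1, 3 and 6, tacrolimus replicates 3 and 6), and the adjusted p ran from 0.0240 to 0.108 over all settings. On deposited FPKM of both tables the difference had the opposite sign (−0.75). The spliced entry had 24.0, 18.8, 26.5 and 29.3 rescaled FPKM with saline and 33.3, 32.3, 40.5 and 32.1 with cyclosporine A, without overlap (0.48 ± 0.14, adjusted p = 0.144). It ran from 24.7 to 57.2 FPKM (median 48.6) with DMSO/PEG and from 19.4 to 48.7 (median 45.6) with tacrolimus, and its difference between the drugs was 0.66 ± 0.28 (adjusted p = 0.246). The log2 ratio of group means with both entries summed was 0.30 for cyclosporine A and −0.31 for tacrolimus. The chromosome 1 entry held 55.5% to 68.1% of those fragments with saline or cyclosporine A, against 57.0% to 75.1% with DMSO/PEG or tacrolimus. By the correlation of log2 values over the 12 tacrolimus-table libraries, the named gene closest to the chromosome 1 entry was Apoo, a subunit of the mitochondrial cristae-organizing complex (Pearson's r 0.96). Over the 8 libraries of the other table it was Lacc1 (r 0.96), after an entry without a gene name. Both are descriptions.

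Over all members, 10 of 80 reached an unadjusted p under 0.05 in the difference between the drugs (9 higher with cyclosporine A, 1 lower; 12.5%, against 16.0% of all genes), and the median difference was 0.082, against 0.0040 over all genes. Leaving out 1 library gave 5 to 15 such members and a median from 0.025 (without DMSO/PEG replicate 3, with 0.028 without cyclosporine A replicate 3) to 0.17 (without cyclosporine A replicate 4). The share of all genes at that p is not given for these fits. The other members higher with cyclosporine A were Atp5me (0.64), Atp5f1e (0.43), Cox7b (0.39), Atp5pf (0.38), Ndufa5 (0.37), Atp5md (0.35), spliced Uqcrb and Cox8b (2.08), and Atp5f1a was lower (−0.39). These names were chosen after their values were seen. On deposited FPKM of both tables, 3 of 80 members were above 0, and the median difference was −1.24 against −0.89 over all genes. None but Uqcrb on chromosome 1 was called from the limma standard errors with all libraries. Cox8b was also called without cyclosporine A replicate 4 (2.75, adjusted p = 0.00814). With DMSO/PEG replicates 3 and 5 and tacrolimus replicate 6 left out, the spliced Uqcrb entry was called (0.65, adjusted p = 0.0499) and the chromosome 1 entry was not (0.0528).

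**Figure D5:**
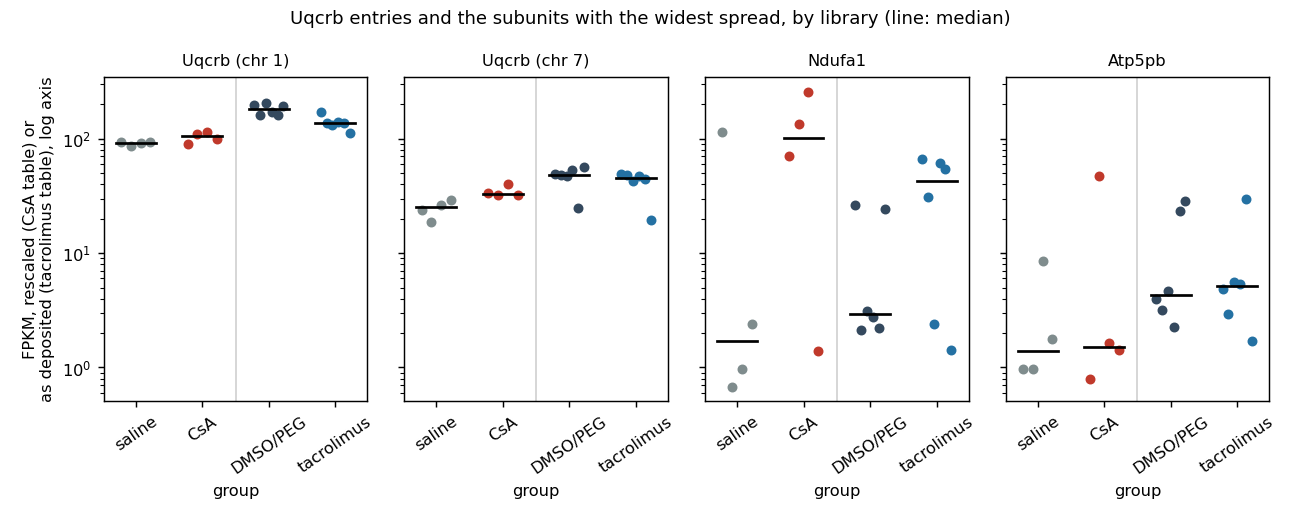
FPKM on a log axis in every library, rescaled for the cyclosporine A table (left of the grey line in each panel) and as deposited for the tacrolimus table (right), with lines at group medians. Both Uqcrb entries are tightly grouped apart from DMSO/PEG replicate 5 and tacrolimus replicate 6 for the chromosome 7 entry, while Ndufa1 and Atp5pb spread over more than a decade within most groups.

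Ndufa1 and Atp5pb varied widely within groups, with coefficients of variation of 80.6% to 191% and 107% to 180% over the 4 groups. Ndufa1, an X-linked accessory subunit of complex I (213 bases long, chromosome X, 124513269 to 124516705, minus strand), was at 113, 0.679, 0.969 and 2.42 rescaled FPKM with saline and at 70.1, 134, 257 and 1.38 with cyclosporine A. It ran from 2.11 to 26.2 FPKM (median 2.93) with DMSO/PEG and from 1.41 to 66.6 FPKM (median 42.6) with tacrolimus. Libraries with high and with low values occurred in all 4 groups, and the changes of 3.04 (95% interval −0.59 to 6.66) and 1.53 (−0.53 to 3.59) were not called. Atp5pb, the peripheral stalk subunit b of ATP synthase (chromosome 2, 208408890 to 208420163, minus strand), was at 0.974, 0.962, 8.57 and 1.78 with saline and 0.792, 47.2, 1.63 and 1.42 with cyclosporine A. With DMSO/PEG it ran from 2.26 to 28.8 FPKM (median 4.31) and with tacrolimus from 1.72 to 29.7 (median 5.11). Its values in the cyclosporine A table came out as whole fragments only with a length of 727 bases, against 2063 listed. For comparison, members of at least 50 FPKM had a median coefficient of variation of 7.56% with saline, 12.4% with cyclosporine A, 13.0% with DMSO/PEG and 8.33% with tacrolimus, and other nuclear genes of that level had 9.66%, 15.3%, 10.5% and 9.39%.

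The other genes of the pathway gave the same contrast between scales. On deposited cyclosporine A values 37 of 37 assembly factors of complexes I to V fell (median −1.16), as did 13 of 13 tricarboxylic acid cycle enzymes (−1.35), 13 of 14 other electron carriers such as cytochrome c and coenzyme Q genes (−1.34) and 16 of 17 regulators of respiratory genes (−1.03), where 80.9% of all genes fell. After rescaling 0 of 37, 0 of 13, 0 of 14 and 0 of 17 were called by limma (medians −0.041, −0.083, −0.12 and −0.12), with 3, 2, 2 and 0 at an unadjusted p under 0.05, against 16.2% of all genes. With tacrolimus 0 of 40, 0 of 13, 0 of 15 and 0 of 17 were called (medians −0.069, −0.057, −0.068 and −0.0014), with 3 in each list at an unadjusted p under 0.05, against 8.59% of all genes.

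The mitochondrially encoded partner subunits were counted in the same way. Of 11 matched, 5 rose with cyclosporine A and 0 fell on deposited values (median 0.56), where 0.193% of all genes rose. On rescaled values all 11 were higher at an unadjusted p under 0.05 (median 1.90; 16.2% of all genes in either direction) and 0 passed adjustment by limma (0.609% of all genes). Mt-nd1, a membrane core subunit of complex I, was at 26239.9 ± 9464 rescaled FPKM with saline and 100686 ± 33413 with cyclosporine A (SD, n = 4; 1.95 ± 0.41, adjusted p = 0.0714). With tacrolimus 0 of 13 were called (median 0.079, 0 at an unadjusted p under 0.05).

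Markers of kidney cell types gave these counts beside the members, where 0.609% of all genes were called with cyclosporine A after rescaling and 0.304% with tacrolimus (16.2% and 8.59% at an unadjusted p under 0.05). With cyclosporine A on rescaled values, 1 of 12 proximal tubule markers rose, 1 of 4 thick ascending limb and 1 of 5 distal convoluted tubule markers fell, and 0 of 6 principal cell and 0 of 5 intercalated cell markers were called by limma. At an unadjusted p under 0.05 these lists had 5, 2, 1, 2 and 0 markers, in that order. Of the proximal tubule markers 8 were below 0 and 4 above (median −0.12). They summed to 4834 to 5461 rescaled FPKM with saline and 2721 to 5552 with cyclosporine A. Endothelial, pericyte and leukocyte lists had 0 of 6, 0 of 7 and 0 of 5 called, brown adipocyte, adipocyte and striated muscle lists 0 of 3, 0 of 7 and 0 of 1 (1, 0, 1, 0, 1 and 1 at an unadjusted p under 0.05, in that order). With tacrolimus 5 of 5 distal convoluted tubule markers fell (summed level 291 to 366 FPKM with DMSO/PEG and 51.1 to 78.7 FPKM with tacrolimus). There 0 of 12, 0 of 4, 0 of 6 and 0 of 5 of the other tubule lists and 0 of 6, 0 of 7 and 0 of 7 of the endothelial, pericyte and leukocyte lists were called by limma, with 1 proximal tubule and 1 intercalated cell marker at an unadjusted p under 0.05. The part of these shifts in the member values was not tested.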

How the data were processed

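Whole-kidney total RNA was sequenced in 20 samples: cyclosporine A and saline (n = 4 each), tacrolimus and DMSO/PEG (n = 6 each). The authors deposited FPKM per gene in 2 tables, 1 per drug. HISAT2 and the rn6 build are named in the submitters' processing notes. The counting program, strand setting and annotation are not given in the sources used here. Positions are those of the deposited tables.

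Deposited FPKM times gene length gave whole fragments (tolerance 0.01) for 100.0% of values above 0 in the tacrolimus table. In the cyclosporine A table it did for 74.6%, and 23.5% of detected genes were whole only at a shorter length. The deposited cyclosporine A scaling matched the fragment total within 0.0066%. Fragments were used for depth, the filter (at least 10 fragments in as many libraries as the smaller group and 15 in total) and rescaling. Shares and intervals here cover these libraries only.

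Groups were compared within a table with limma 3.58.1 (R 4.3.3) on log2(FPKM + 1), with a trended variance and Benjamini-Hochberg adjustment over all genes tested. A change on this scale understates that of low genes. The difference between drugs used both standard errors with Satterthwaite degrees of freedom. Alternatives were a pseudocount of 0.1, no filter, voom on recovered fragments, other scalings, a replicate block and leaving out each library.

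Members and gene lists were chosen with earlier results of these data known. Members named by rule were those called after rescaling, with tacrolimus or in the difference, the highest and lowest change in each complex, the highest level in each complex, the core subunits and the isoform families. Symbols listed more than once were named in addition. Atp5me, Ndufs4 and the other members at an unadjusted p under 0.05 were named after their values were seen. Promoters are RefSeq windows of GRCr8, of which no coordinates were mixed with rn6.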

Additional observations from a re-analysis of the deposited data

Results flagged for a closer look

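Members were looked at for a library far from the rest of its group, and for a change that differed between the drugs. Of 172 groups of values, 16 held such a library; chance alone flags about 1 in 20, and groups share libraries, so the flags are not independent. Values are FPKM as deposited.

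Ndufb3 (membrane arm of complex I) was lowest in DMSO/PEG replicate 5 at 79.9, with the other libraries at 132 to 157, and in tacrolimus replicate 6 at 39.4, against 103 to 117. The spliced Uqcrb entry on chromosome 7 was lowest in the same 2 libraries, at 24.7 against 47.1 to 57.2 and at 19.4 against 42.4 to 48.7. Tacrolimus replicate 6 was also lowest for Uqcr11 (284 against 445 to 488) and highest for Ndufs3 (181 against 135 to 148) and Cox7a2l (102 against 87.2 to 91.1). Cox7a2l was highest in DMSO/PEG replicate 3 (109.7 against 80.9 to 90.4). These 3 libraries had the fewest nuclear genes detected in their table, and the part of that in the values was not tested.

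In the cyclosporine A experiment Cox4i1 was lowest in saline replicate 2 (383 against 639 to 687) and Cox7b in cyclosporine A replicate 4 (108 against 200.1 to 218). These libraries had the highest mitochondrial share of their groups (68.6% and 90.8%), and on rescaled FPKM the values were 303 against 341 to 417 and 252 against 259.7 to 319. Ndufa1 was highest in saline replicate 1 (229 against 0.860 to 4.16). Atp5pb was highest in saline replicate 3 (13.1 against 1.22 to 3.07), in cyclosporine A replicate 2 (39.05 against 0.497 to 1.22) and in tacrolimus replicate 5 (29.7 against 1.72 to 5.63). The low-level members Cox7a1 (0.0405 in cyclosporine A replicate 2, listed at 0 in the others) and Cox6b2 (1.32 in tacrolimus replicate 3 against 1.98 to 2.37) had 1 such library each.

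The chromosome 1 entry of Uqcrb differed between the drugs by 0.57 (cyclosporine A change minus tacrolimus change, adjusted p = 0.0405, from the limma standard errors). The call was lost without any 1 of 11 of the 20 libraries, and the sign turned on deposited FPKM (−0.75).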

How the results depend on the processing

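The direction and call of members with cyclosporine A depended on the scale: 75 of 80 were called lower on deposited FPKM and 0 on rescaled FPKM, under every alternative run for the latter. Leaving out 1 library gave 73 to 76 calls on deposited values. With tacrolimus 1 member was called in place of 0 with a pseudocount of 0.1, with the replicate block and relative to nuclear fragments (Cox8b), and 1 with DMSO/PEG replicates 3 and 5 and tacrolimus replicate 6 left out together (Ndufb3), a setting chosen after seeing the data. Leaving out 1 library gave 0 to 1 calls. The cause was not tested.

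In the difference between the drugs 1 member was called. Leaving out 1 library gave 0 to 2 calls, the 2 without cyclosporine A replicate 4. With deposited FPKM for both drugs, 72 were called (71 lower), and 3 of 80 members were above 0 in place of 54. Most genes shifted too: the median difference was −0.89 over all genes and −1.24 over members in this setting. The share of all genes called in it is not given here, so the 72 are not read as particular to the members. Among the members named by rule, those whose reported difference had the opposite sign there included Cox6a1 (−1.24), Cox7b (−0.93), Cox5a (−1.25), Uqcr11 (−1.14), Cox7a2l2 (−1.15), Cox5b (−0.95), Cox6b1 on chromosome 1 (−1.21), Sdhb (−1.26), Sdhd (−1.31), Ndufv2 (−1.24), Uqcrb on chromosome 1 (−0.75), Ndufs7 (−1.22), Uqcr10 (−1.15), Cox7a2l (−1.06) and Atp5f1c (−1.29). The deposited cyclosporine A scaling includes mitochondrial fragments.

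Deviations of samples with the same replicate number were weakly correlated (r from −0.15 to 0.21 over 4 pairs and from −0.15 to 0.18 over 6). The labels give them only a number in common, and so few pairs cannot exclude a shared batch. With the replicate block 74 members were called on deposited cyclosporine A values (73 lower, 1 higher), 0 on rescaled values, 1 with tacrolimus and 0 in the difference. The spliced Uqcrb entry lost its call at 0.0634. The member called higher was Ndufa1 (2.03, limma, adjusted p = 1.88e-05, against 0.146 without the block). Its deposited FPKM fell from 229 to 43.9 in replicate 1 and from 4.16 to 0.593 in replicate 4, and rose in replicates 2 and 3. That p-value thus does not measure the spread of Ndufa1 between libraries, and the call is not read as a rise. In the tacrolimus experiment 2 of 6 numbers matched their own number best, and with cyclosporine A 1 of 4 did. Members under 5 FPKM rest on few fragments, and the size of change detectable there was not tested.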
